A study of Mus musculus with 18 samples.

Results

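The comparison described here sets mouse CD4+ T cells that lack all 3 PHD proteins against control T cells, both activated without TGF-b. It takes 4 of the 18 libraries of the series: the 2 labelled tKO at 0 ng/ml TGF-b and the 2 labelled WT at the same dose, chosen by those labels and not by any measured value. Cells of the tKO group carried floxed Egln1, Egln2 and Egln3 alleles (Egln1fl/fl, Egln2fl/fl and Egln3fl/fl) together with a Cd4Cre transgene, and cells of the WT group carried Cd4Cre alone, so that the recombinase is common to both groups. Naive CD4+ T cells of C57BL/6 spleens were purified by sorting, stimulated through CD3 and CD28, and their messenger RNA was sequenced on day 4. Cre driven by Cd4 regulatory sequence is active from the thymocyte stage, so the genes are lost long before activation and in CD8 T cells as well. The sources used here state neither the age of the mice nor whether the libraries of a group come from separate animals. The p-values below therefore measure only the spread between libraries, estimated over all 12 libraries of the experiment.

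The PHD proteins (PHD2 from Egln1, PHD1 from Egln2 and PHD3 from Egln3) are enzymes that use oxygen and 2-oxoglutarate to hydroxylate prolines of the hypoxia-inducible factors HIF-1α and HIF-2α. Hydroxylated HIF is bound by the VHL protein and degraded. Without PHD activity HIF accumulates in oxygenated cells and drives genes of glucose uptake, glycolysis, mitochondrial turnover, angiogenesis and collagen modification. In CD4+ T cells HIF activity is known for its link to effector differentiation and for opposing effects on regulatory T cells, whose defining factor is Foxp3.

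Levels are given in FPKM, fragment counts scaled by transcript length and by the mapped fragments of the library, for each of the libraries in the order replicate 1 and replicate 2. The 4 libraries had FPKM sums of 632785 and 676963 in WT and 711375 and 779265 in tKO, with 9946 to 10096 symbols reaching 1 FPKM in each. Low values gave a relative read number per FPKM of 1.26 and 1.16 in WT and 1.04 and 0.948 in tKO. Both measures separated the genotypes, with the read number per FPKM higher in WT, while absolute depth is unknown. The part of this offset in the differences was not tested. Log2 values correlated across genes with r = 0.983 between the WT libraries, 0.973 between the tKO libraries and 0.930 to 0.944 across genotypes. Transcripts of 12 Y-linked genes summed to 60.5, 67.6 and 63.6 FPKM in the tKO replicate 1 libraries at 0, 0.2 and 2 ng/ml and to at most 0.00800 FPKM in the other 9 libraries of the experiment. The tKO replicate 1 libraries thus held male cells and differed in this from the tKO replicate 2 and WT libraries. The tKO libraries at 0 ng/ml therefore do not come from the same single animal. The part of sex in the differences between genotypes was not tested.

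The targeted genes did not fall together. Egln1 was at 44.3 and 36.6 FPKM in the WT libraries and 112 and 92.8 in the tKO libraries, and Egln3 was at 18.7 and 14.0 against 140.2 and 111, both higher in tKO. Egln2 was at 48.8 and 47.1 FPKM in WT and 39.0 and 29.7 in tKO, a difference that did not pass the test (adjusted p = 0.307). A gene-level FPKM counts the exons outside the floxed segment too, and Egln1 and Egln3 are themselves induced by HIF, so these values do not check the deletion and the genotypes rest on the labels.

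The cells carried the markers of CD4+ T cells in every library. Cd3e lay between 268 and 373 FPKM. Of 12 myeloid markers in the table, 9 were listed at 0 in all 4 libraries, Lyz2, Cd14 and S100a8 among them, and Cd68 was at 3.03 and 3.33 FPKM in WT and 6.44 and 7.74 in tKO, not called (adjusted p = 0.29). Of 14 mast cell and basophil markers, 9 were listed at 0, Cpa3, Mcpt8 and Fcer1a among them. That list summed to 18.6 and 12.1 FPKM in WT and 4.85 and 1.51 in tKO, and most of the WT sum came from Gata1, which is described below. Cd4 was at 212 and 159.5 FPKM in WT and 108 and 113 in tKO (log2 difference -0.73 ± 0.17, adjusted p = 0.0139), and this call was lost without WT replicate 1 (adjusted p = 0.2), tKO replicate 1 (0.068) or tKO replicate 2 (0.062). Of 13 T cell markers tested, Cd4 was the only one called, but only 1 had a positive difference and the median was -0.32. These markers summed to 3871 and 3832 FPKM in WT and to 3058 and 3015 FPKM in tKO. With quantile normalization, 5 of them were called lower. A small B cell signal was present: the 9 B cell markers summed to 43.5 and 16.3 FPKM in WT and to 87.1 and 40.9 FPKM in tKO, with none of the 5 tested called. In bulk RNA, fewer cells of a type and less RNA per cell cannot be told apart.

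Of 10354 genes tested, 998 (9.64%) were called at an adjusted p under 0.05, 553 higher in tKO (5.34%) and 445 lower (4.3%). The shares higher and lower are the background for each count of called genes in a list below. All differences below are tKO minus WT on the log2(FPKM + 1) scale with the standard error of the limma fit, n = 2 libraries per group, and the scale understates changes of low genes. Both tKO libraries lay above both WT libraries for 25.8% of the genes tested and below them for 26.2%, the background for each statement below that libraries did not overlap. The median difference over all genes tested was -3.36e-05. The number called was 513, 523 and 523 without WT replicate 1, WT replicate 2 and tKO replicate 2, and 792 without tKO replicate 1. Of the 998 calls, 373 (239 higher and 134 lower) were kept when each of the 4 libraries was left out in turn. Each gene given below as higher or lower at 0 ng/ml is among those 373 unless the libraries that decide its call are given beside it. The plot of difference against level shows the cytokine and metallothionein genes at the upper edge and Klf2, Foxp3 and Ccdc164 at the lower edge.

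**Figure D1:**
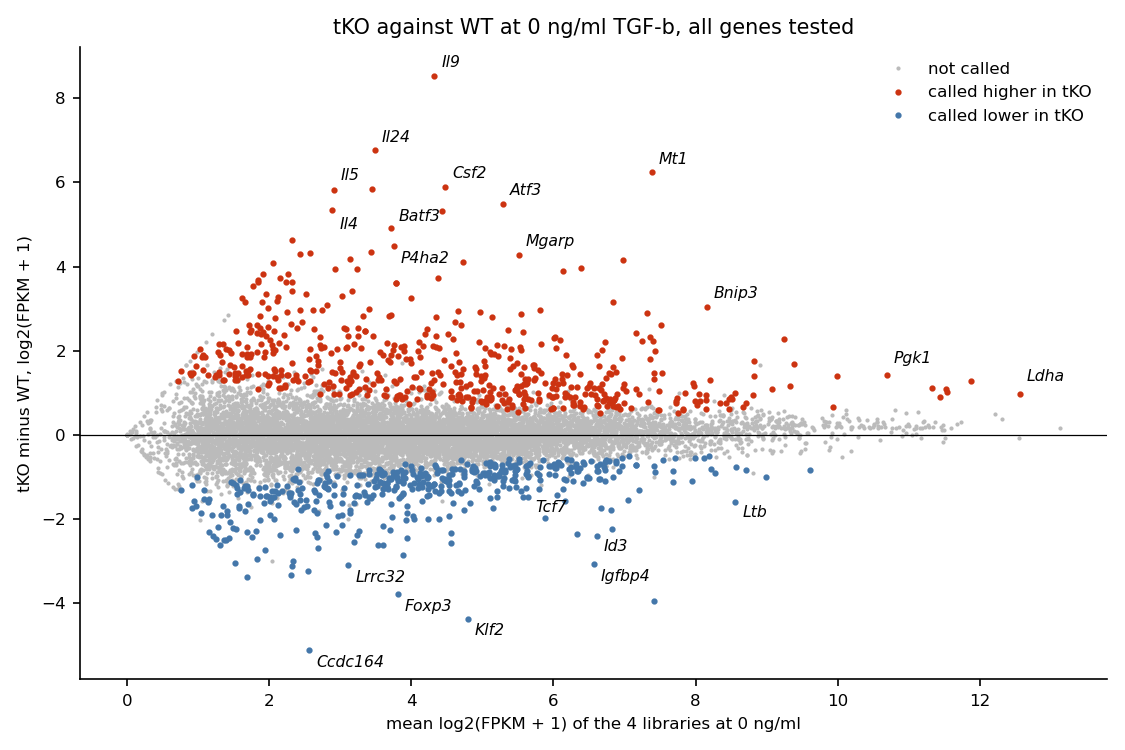
Each point is a gene; the x axis is the mean log2(FPKM + 1) of the 4 libraries at 0 ng/ml and the y axis is tKO minus WT on the same scale, with called genes in red (553 higher) and blue (445 lower). The highest point is Il9 at 8.54, and Klf2 lies at -4.37.

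The listed genes of glucose metabolism showed a one-sided shift. Of 24 genes of glucose uptake and glycolysis, 17 rose (70.8%, against 5.34% of all genes) and none fell, with a median difference of 1.08. The number called higher was 12, 13, 13 and 16 without WT replicate 1, WT replicate 2, tKO replicate 1 and tKO replicate 2. Summed over the 24 genes, the level went from 15365 and 15484 FPKM in WT to 33273 and 33912 FPKM in tKO. The enolase gene Eno3, which is not among the 24, was called lower (-2.37 ± 0.24, adjusted p = 3.95e-05) and is described below.

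At the point of entry, Slc2a3, which encodes the glucose transporter GLUT3, was at 25.2 and 11.5 FPKM in WT and 397 and 184 in tKO (3.90 ± 0.43, adjusted p = 5.76e-05), a 15.8-fold rise of the means although the tKO libraries differed from each other by more than the WT level. The gene of GLUT1, Slc2a1, was at 77.0 and 58.4 against 182 and 184 FPKM (1.44 ± 0.25, adjusted p = 0.00202). Hexokinase 2, which traps glucose in the cell, had Hk2 at 8.94 and 8.14 FPKM in WT and 38.1 and 42.3 in tKO (2.11 ± 0.26, adjusted p = 0.000169). In all 3 genes the tKO libraries lay above the WT libraries.

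Among the enzymes further down, Pgk1 (phosphoglycerate kinase) was at 1026 and 997 FPKM in WT and 2549 and 2843 in tKO (1.41 ± 0.15, adjusted p = 4.79e-05), and Tpi1 (triosephosphate isomerase) was at 629 and 626 in WT and 1519 and 1777 in tKO (1.39 ± 0.16, adjusted p = 9.68e-05). Gapdh, often used as a reference gene, was at 2429 and 2414 FPKM in WT and 5377 and 6329 in tKO (1.27 ± 0.17, adjusted p = 0.000387). Both libraries of each genotype were tightly grouped for these genes. Aldoa rose 2.17-fold and Ldha, the lactate dehydrogenase subunit, 1.96-fold, while the less abundant aldolase gene Aldoc rose 4.81-fold. Lactate leaves the cell through MCT4, and its gene Slc16a3 was at 88.0 and 59.0 FPKM in WT and 406 and 333 in tKO (2.34 ± 0.26, adjusted p = 7.35e-05).

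Most of the other HIF targets tested rose. Of 34 genes tested of a list of 38, 26 rose and none fell, and 23 of 31 rose when the 3 that averaged under 1 FPKM over the WT libraries, and so passed the filter through tKO, are set aside. Between 24 and 25 were called higher when 1 of the 4 libraries was left out. Bnip3, a receptor for the removal of mitochondria, was at 101 and 94.8 FPKM in WT and 765 and 875 in tKO, 8.36-fold higher (3.05 ± 0.17, adjusted p = 2.48e-07). Mgarp, a mitochondrial protein gene induced by low oxygen, was at 12.4 and 6.96 FPKM in WT and 196 and 205 in tKO (4.29 ± 0.23, adjusted p = 2.48e-07). The lowest tKO library stood far above the highest WT library for both.

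Genes of lipid droplets were among the risers: Hilpda, an inhibitor of triglyceride breakdown, was at 40.3 and 34.7 FPKM in WT and 309 and 378 in tKO (3.16 ± 0.26, adjusted p = 6.53e-06), and the droplet coat gene Plin2 was at 18.0 and 15.1 in WT and 71.8 and 63.2 in tKO (1.97 ± 0.24, adjusted p = 0.000163). Secreted vascular factors rose from low levels: Vegfa was at 5.49 and 5.33 FPKM in WT and 33.7 and 22.1 in tKO (2.14 ± 0.31, adjusted p = 0.000593), and adrenomedullin, Adm, at 2.01 and 2.90 in WT and 24.1 and 15.0 in tKO (2.55 ± 0.28, adjusted p = 6.59e-05). Vldlr, a lipoprotein receptor, was below 1 FPKM in WT (0.207 and 0.552) and at 11.0 and 6.88 FPKM in tKO (2.83 ± 0.33, adjusted p = 8.73e-05). The transcription factor gene Bhlhe40 rose 5.39-fold, the galectin gene Lgals3 5.69-fold and Jmjd6, which encodes a 2-oxoglutarate dependent lysyl hydroxylase, 2.71-fold.

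Of 10 genes of the HIF and PHD core tested, 4 rose (Egln1, Egln3, Vhl and Hif3a) and none fell, and the Hif3a call was lost without each of the 4 libraries in turn (adjusted p of 0.0711 to 0.13). Hif1a, the oxygen-regulated subunit of HIF-1, was at 92.9 and 63.3 FPKM in WT and 64.7 and 24.5 in tKO, overlapping ranges with an adjusted p of 0.167. Without tKO replicate 1, Hif1a was called lower (-1.61, adjusted p = 0.0143). Vhl was at 17.2 and 18.1 FPKM in WT and 45.4 and 38.8 in tKO (1.21 ± 0.20, adjusted p = 0.00131), and Egln3 rose 7.65-fold (2.86 ± 0.23, adjusted p = 4.37e-06) and Egln1 2.54-fold (1.32 ± 0.18, adjusted p = 0.000393). These are RNA levels, and HIF is controlled at the level of its protein.

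**Figure D2:**
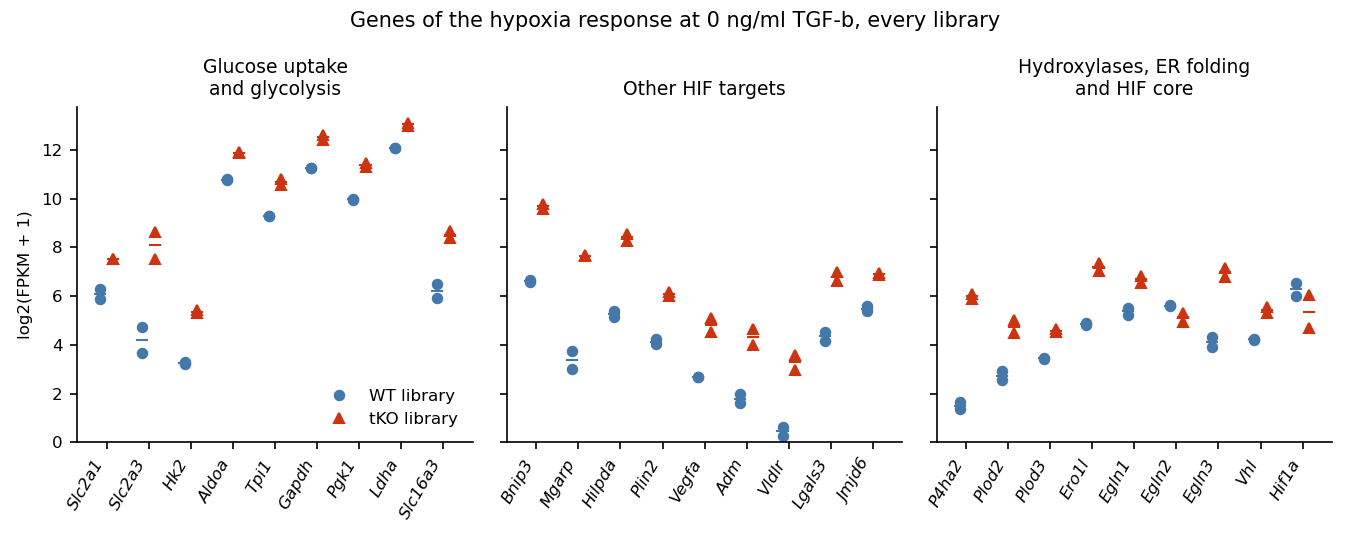
Each symbol is a library at 0 ng/ml (WT circles, tKO triangles), the short line is the group mean and the y axis is log2(FPKM + 1). The tKO libraries lie above the WT libraries for every gene drawn except Egln2 and Hif1a, with the widest gaps for P4ha2, Mgarp and Slc2a3.

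HIF binds DNA at the core letters RCGTG, which stand for ACGTG or GCGTG. The 250 bases before the start site of 6 called genes of the glucose and HIF target lists are printed to show where these letters lie. They are the 6 with the smallest p among the up to 4 genes per list, and those among the 15 highest ranked of all, that have a window with at least 1 match on either strand. Hilpda stands outside that choice, and Slc2a3 is not shown. Sequences are RefSeq promoters of build GRCm38.p6, 5′ to 3′ along the gene, in lower case with each match, on either strand, in capitals.
Bnip3 (chr7:138909507-138909756, minus strand): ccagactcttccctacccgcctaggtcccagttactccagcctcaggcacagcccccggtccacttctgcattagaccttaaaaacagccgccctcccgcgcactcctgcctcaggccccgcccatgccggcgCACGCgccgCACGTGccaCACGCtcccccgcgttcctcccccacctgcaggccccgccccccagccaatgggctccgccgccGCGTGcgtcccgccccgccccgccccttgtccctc
Mgarp (chr3:51396548-51396797, minus strand): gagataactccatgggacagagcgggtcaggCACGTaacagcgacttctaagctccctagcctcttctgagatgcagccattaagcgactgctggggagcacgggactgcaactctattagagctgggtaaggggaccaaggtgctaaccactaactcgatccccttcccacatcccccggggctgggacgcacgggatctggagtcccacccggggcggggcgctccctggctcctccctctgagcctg
Lgals3 (chr14:47373610-47373859, plus strand): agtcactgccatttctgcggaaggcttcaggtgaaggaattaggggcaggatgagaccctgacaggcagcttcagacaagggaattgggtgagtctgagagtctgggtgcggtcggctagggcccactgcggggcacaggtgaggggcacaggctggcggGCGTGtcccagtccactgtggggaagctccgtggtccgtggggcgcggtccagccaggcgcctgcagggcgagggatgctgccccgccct
Egln3 (chr12:54203875-54204124, minus strand): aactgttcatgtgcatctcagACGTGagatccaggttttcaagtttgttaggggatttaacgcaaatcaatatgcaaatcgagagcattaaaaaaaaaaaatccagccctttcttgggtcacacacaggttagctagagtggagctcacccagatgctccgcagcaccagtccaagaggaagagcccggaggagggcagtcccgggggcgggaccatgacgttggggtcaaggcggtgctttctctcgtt
Pgk1 (chrX:106186850-106187099, plus strand): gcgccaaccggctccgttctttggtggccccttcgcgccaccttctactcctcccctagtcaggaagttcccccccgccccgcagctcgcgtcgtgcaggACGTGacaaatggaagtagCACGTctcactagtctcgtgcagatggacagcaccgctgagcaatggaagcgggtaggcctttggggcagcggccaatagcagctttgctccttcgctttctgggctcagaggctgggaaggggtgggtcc
Slc16a3 (chr11:120948817-120949066, plus strand): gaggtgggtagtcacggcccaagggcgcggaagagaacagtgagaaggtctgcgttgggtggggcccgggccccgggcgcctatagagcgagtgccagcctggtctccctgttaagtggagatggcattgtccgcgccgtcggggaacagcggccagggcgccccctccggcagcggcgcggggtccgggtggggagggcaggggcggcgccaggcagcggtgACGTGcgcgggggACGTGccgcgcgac

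The Bnip3 window held 5 matches, of which a palindrome accounts for 2 overlapping matches, 1 on each strand, and the Pgk1 and Slc16a3 windows held 2 each. The others held 1. The Vldlr and Tpi1 windows held none. The letters are common: of 8161 tested genes with a window in the table, 59% had at least 1 match, of 423 genes called higher 57.2% had, and of 340 called lower 54.1% had. Among 52 tested genes of the glucose and HIF target lists the share was 73.1%, and among the 38 of them called higher 68.4%. A match is a string of letters and not a measured binding site.

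Collagen modification and oxidative folding in the endoplasmic reticulum both involve enzymes that use oxygen. Of 13 genes of these processes tested, 4 rose and 1 fell. With P4ha2 set aside, which averaged under 1 FPKM over the WT libraries of all doses, 3 of 12 rose. P4ha2, a subunit of collagen prolyl 4-hydroxylase, was at 1.55 and 2.16 FPKM in WT and 67.8 and 58.5 in tKO, 34.0-fold higher (4.49 ± 0.33, adjusted p = 2.21e-06). Ero1l, the oxidase that regenerates disulfide donors, was at 27.0 and 29.0 FPKM in WT and 161 and 128 in tKO (2.32 ± 0.19, adjusted p = 4.38e-06). The lysyl hydroxylase genes went both ways: Plod2 rose 4.59-fold (2.01 ± 0.25, adjusted p = 0.000189) and Plod3 2.32-fold (1.14 ± 0.20, adjusted p = 0.00262), while Plod1 fell from 5.22 and 3.25 to 1.66 and 0.584 FPKM (-1.32 ± 0.37, adjusted p = 0.0387). The Plod1 call was lost without WT replicate 1 (adjusted p = 0.29), WT replicate 2 (0.072) or tKO replicate 2 (0.31).

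Mitochondrial genes showed few calls. None of 38 genes of oxidative phosphorylation was called by limma, with a median difference of 0.05, and 0 had an unadjusted p under 0.05, against 21.9% of all genes tested. Of 25 genes of the TCA cycle, Idh1 and Idh2 fell (8%, against 4.3% of all genes) and none rose. These isocitrate dehydrogenase genes make 2-oxoglutarate in the cytosol and in mitochondria: Idh1 was at 6.79 and 7.10 FPKM in WT and 2.92 and 1.40 in tKO (-1.37 ± 0.36, adjusted p = 0.0275), and Idh2 at 51.3 and 50.3 in WT and 25.9 and 29.5 in tKO (-0.85 ± 0.19, adjusted p = 0.0118). Idh1 was called only without tKO replicate 1 (adjusted p = 0.027) and Idh2 only without tKO replicate 2 (0.039) among the fits that left out a library, and their adjusted p reached 0.25 and 0.091 in the others.

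Cytokine genes held several of the widest differences. A list of type 2 genes with Il24 had 15 members, of which 4 lay below the filter. Of the 11 tested 8 rose, but Il4, Il5, Il13, Il24 and Pparg averaged under 1 FPKM over the WT libraries of all doses and so passed the filter only through tKO libraries. Of the other 6 tested, 3 rose (Gata3, Ccr4 and Nfil3), and none of the 11 fell. Hif3a, P4ha2, Vldlr, Ifng, Il3, Ccl17 and Batf3 of the other lists also averaged under 1 FPKM over the WT libraries. Il4, the cytokine of Th2 differentiation and class switching to IgE, was at 0.337 and 0 FPKM in WT and 37.9 and 56.4 in tKO (5.35 ± 0.38, adjusted p = 1.90e-06). Il5, which matures eosinophils, was listed at 0 in both WT libraries and was at 62.4 and 48.9 FPKM in tKO (5.81 ± 0.58, adjusted p = 3.28e-05). Il13, which acts on epithelium, was also listed at 0 in both WT libraries and was at 12.5 and 20.7 FPKM in tKO (4.10 ± 0.41, adjusted p = 3.32e-05). No fold is given for these, since a value of 0 in such a table can be a failed estimate.

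The factor that opens this locus, Gata3, was at 29.0 and 22.9 FPKM in WT and 126 and 112 in tKO (2.16 ± 0.18, adjusted p = 7.29e-06). Nfil3, a repressor of the bZIP class that is induced by IL-4, rose 5.92-fold (2.49 ± 0.21, adjusted p = 7.30e-06) and the Th2 chemokine receptor gene Ccr4 3.38-fold (1.71 ± 0.26, adjusted p = 0.000946). Outside the type 2 locus, Il24 was at 0.152 and 0 FPKM in WT and 104 and 129.5 in tKO (6.77 ± 0.41, adjusted p = 4.04e-07). Its neighbours on chromosome 1, Il19, Il20 and Il10, lay at or below 1.58 FPKM in all 4 libraries.

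Several of the genes with wide differences lie next to each other on chromosome 11, a set picked after the values were seen. Between Kif3a and Il3 (mm9 chr11:53380874-54080781), 11 entries were tested, of which 7 rose and 1 fell. In chromosomal order these were Kif3a, Il4, Il13, Il5, P4ha2, Csf2 and Il3 among the higher and Pdlim4 as the lower. Of these, Il4, Il13, Il5, P4ha2 and Il3 averaged under 1 FPKM over the WT libraries of all doses. They passed the filter only through tKO libraries, unlike Kif3a and Csf2. Kif3a, which encodes a kinesin motor subunit, was at 7.08 and 4.85 FPKM in WT and 16.7 and 19.6 in tKO, and its call was lost without WT replicate 2 (adjusted p = 0.133) or tKO replicate 2 (0.101). Between these genes stand Rad50, at 20.1 and 17.3 FPKM in WT and 29.0 and 19.5 in tKO (adjusted p = 0.471), and Irf1, at 223 and 104 in WT and 174 and 149 in tKO (adjusted p = 0.911), neither called. Pdlim4, an adaptor protein gene, was at 11.7 and 6.86 FPKM in WT and 2.86 and 2.93 in tKO (-1.36 ± 0.30, adjusted p = 0.00977), and its call was lost without WT replicate 1 (0.147) or tKO replicate 2 (0.0581).

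Several cytokines of other helper lineages rose. Of 15 tested genes of Th9, GM-CSF and other cytokines, 9 rose and 1 fell, and between 6 and 8 were called higher when a library was left out, the fewest without WT replicate 2. With Il3 set aside, which averaged under 1 FPKM over the WT libraries, 8 of 14 rose. Il9, a growth factor for mast cells, was at 0.0801 and 0 FPKM in WT and 207 and 717 in tKO (8.54 ± 0.56, adjusted p = 9.75e-07), with tKO replicate 2 well above tKO replicate 1 and both far above WT. Csf2, which encodes GM-CSF, was at 1.50 and 2.30 FPKM in WT and 137 and 211 in tKO (5.90 ± 0.41, adjusted p = 1.50e-06). Il3 was at 0.760 and 0 FPKM in WT and 17.5 and 37.5 in tKO (4.33 ± 0.62, adjusted p = 0.000549).

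Il1a rose 17.0-fold to 31.8 and 69.1 FPKM, and Il12a, the p35 chain shared by IL-12 and IL-35, was listed at 0 in both WT libraries and was at 6.17 and 22.2 FPKM in tKO (3.69 ± 0.61, adjusted p = 0.00153). Outside the tKO libraries at 0 ng/ml, Il12a averaged under 1 FPKM, so it passed the filter only through them. Irf4, a factor that Th2 and Th9 cells share, rose 2.83-fold (1.48 ± 0.20, adjusted p = 0.000311) and the CD30 ligand gene Tnfsf8 3.80-fold. The exception was Ltb, lymphotoxin beta, which fell from 730.5 and 589 FPKM in WT to 218 and 215 in tKO (-1.60 ± 0.21, adjusted p = 0.000303).

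Calls among Th1 genes rested on single libraries. Of 13 tested, 4 were called higher and 1 lower, and the number called higher was 4, 0, 2 and 3 without WT replicate 1, WT replicate 2, tKO replicate 1 and tKO replicate 2. With Ifng set aside, which averaged under 1 FPKM over the WT libraries, 3 of 12 were called higher. Ifng was at 2.47 and 0.969 FPKM in WT and 18.8 and 32.0 in tKO (3.29 ± 0.77, adjusted p = 0.0143), and its call was lost without WT replicate 2 (adjusted p = 0.13) or tKO replicate 2 (0.13). Tbx21, which encodes the Th1 factor T-bet, was at 20.7 and 6.22 FPKM in WT and 61.2 and 36.9 in tKO (1.96 ± 0.45, adjusted p = 0.013), and was lost without WT replicate 2 (0.17) or tKO replicate 1 (0.1). WT replicate 1 held more Tbx21 than WT replicate 2. NK cell markers, which share Th1 features, summed to 257 and 240 FPKM in WT and 132 and 119 in tKO with none of the 4 tested called, and their part in the result was not tested. Most of each sum came from 1 gene, Nkg7, at 250 and 232 FPKM in WT and 127 and 113 in tKO.

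The receptor gene Il12rb2 was at 28.9 and 10.9 FPKM in WT and 99.8 and 66.0 in tKO (2.12 ± 0.43, adjusted p = 0.00576), lost without WT replicate 2 (adjusted p = 0.084) or tKO replicate 1 (0.058). Of 9 chemokine genes 4 were called higher, 2 without WT replicate 2. Ccl17 and Cxcl10 averaged under 1 FPKM over the WT libraries, and 3 of the other 7 were called higher. Ccl1, the ligand of CCR8, was at 3.15 and 8.71 FPKM in WT and 85.5 and 139 in tKO (4.11 ± 0.41, adjusted p = 3.01e-05). Ccl17, a ligand of CCR4, was listed at 0 in both WT libraries and was at 5.96 and 11.9 FPKM in tKO (3.24 ± 0.50, adjusted p = 0.000946). Ccl3 was at 59.4 and 42.0 FPKM in WT and 151 and 280.1 in tKO, a call lost without WT replicate 2 (0.068) or tKO replicate 2 (0.082). So the chemokine genes Ccl1 and Ccl17 and the receptor genes Ccr8 and Ccr4 were all called higher.

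**Figure D3:**
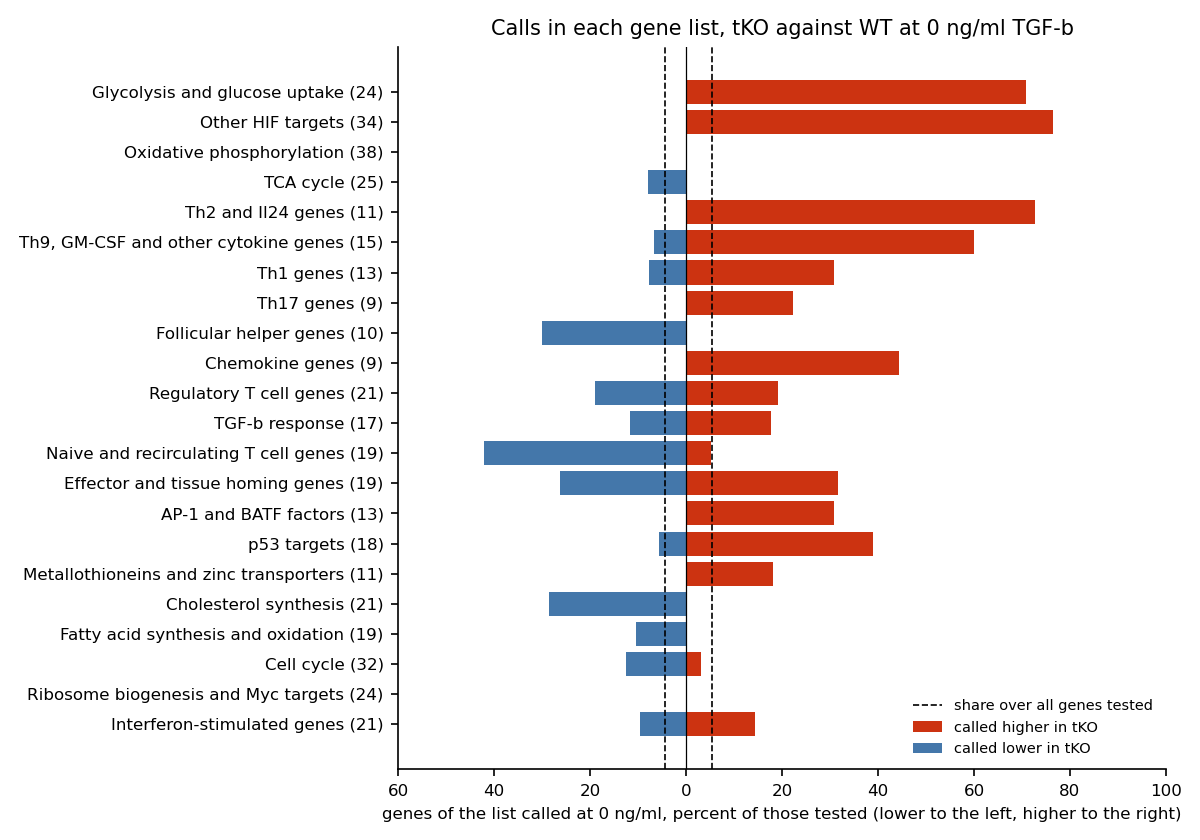
Bars give, for the lists named on the axis, the percent of tested genes (number in brackets) called higher in tKO to the right and lower to the left at 0 ng/ml; dashed lines mark the shares over all genes tested, 5.34% and 4.3%. Of the lists drawn, the HIF target, Th2 and glycolysis lists extend furthest to the right, the Th2 list with 5 genes that passed the filter only through tKO, and the naive T cell list furthest to the left.

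Genes of regulatory T cells split. Of 21 tested, 4 rose (19.0%, against 5.34% of all genes) and 4 fell (19.0%, against 4.3%). Foxp3 was at 51.4 and 50.5 FPKM in WT and 1.99 and 3.77 in tKO, 17.7-fold lower (-3.78 ± 0.28, adjusted p = 2.42e-06), although no TGF-b had been added. Lrrc32, which encodes GARP, the surface anchor of latent TGF-b, was at 26.2 and 22.4 FPKM in WT and 2.80 and 1.30 in tKO (-3.09 ± 0.32, adjusted p = 3.95e-05). Gpr83, a receptor gene linked to Foxp3, was at 33.3 and 40.2 FPKM in WT and 7.82 and 9.08 in tKO (-2.00 ± 0.26, adjusted p = 0.000262). The tKO libraries lay far below the WT libraries for all 3 genes.

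On the other side stood genes that activated effector cells share with regulatory T cells. Ccr8 was at 67.5 and 87.1 FPKM in WT and 349 and 379 in tKO (2.23 ± 0.19, adjusted p = 7.73e-06), and the inhibitory receptor gene Tigit at 6.06 and 6.02 in WT and 31.8 and 26.4 in tKO (2.09 ± 0.27, adjusted p = 0.000266). Ebi3, the chain that IL-27 and IL-35 share, was at 27.1 and 35.5 FPKM in WT and 120.1 and 147 in tKO (2.06 ± 0.32, adjusted p = 0.000957). Among 17 genes of the TGF-b response, 3 rose (17.6%, against 5.34% of all genes) and 2 fell (11.8%, against 4.3%). The number that fell was 1 without WT replicate 1, WT replicate 2 or tKO replicate 2. Spsb1, a brake on TGF-b receptor signalling, was at 1.92 and 0.964 FPKM in WT and 17.0 and 18.2 in tKO (2.96 ± 0.34, adjusted p = 8.68e-05), Cd83 rose 3.59-fold and Pmepa1 2.48-fold.

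Of 19 genes of naive and recirculating T cells tested, 8 fell (42.1%, against 4.3% of all genes) and 1 rose, with a median difference of -0.73. Klf2, the factor that keeps T cells in circulation, was at 130.5 and 120.3 FPKM in WT and 5.61 and 4.63 in tKO, 24.5-fold lower (-4.37 ± 0.24, adjusted p = 2.48e-07). Its target S1pr1, a lipid receptor that guides egress from lymphoid tissue, was at 33.9 and 32.2 FPKM in WT and 11.5 and 13.5 in tKO (-1.34 ± 0.20, adjusted p = 0.000614). Tcf7, which encodes the stemness factor TCF-1, was at 92.0 and 74.6 FPKM in WT and 26.3 and 31.9 in tKO (-1.48 ± 0.18, adjusted p = 0.00016).

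The repressor gene Id3 was at 229.8 and 218 FPKM in WT and 40.0 and 43.1 in tKO (-2.40 ± 0.19, adjusted p = 3.26e-06), while the related Id2 went the other way, from 70.6 and 108 to 285 and 328 FPKM (1.80 ± 0.24, adjusted p = 0.000303). Igfbp4, high in naive T cells, fell 8.66-fold (-3.08 ± 0.18, adjusted p = 4.01e-07), Itga6 5.59-fold and Cd27 2.52-fold.

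Of 19 genes of effector cells and tissue homing, 6 rose and 5 fell. The memory marker Cd44 was at 32.6 and 27.0 FPKM in WT and 81.9 and 101 in tKO (1.58 ± 0.23, adjusted p = 0.000546), and Anxa2, annexin A2, at 306 and 245 in WT and 1444 and 1239 in tKO (2.28 ± 0.17, adjusted p = 2.42e-06). Among the genes that fell, Itgb7, the beta chain of the gut-homing integrin, was at 285 and 209 FPKM in WT and 66.4 and 39.0 in tKO (-2.24 ± 0.36, adjusted p = 0.00121), and Selplg, the selectin ligand, fell 2.20-fold (-1.13 ± 0.17, adjusted p = 0.000715). S100a6 fell 2.59-fold (-1.30 ± 0.25, adjusted p = 0.00492).

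Among transcription factors, Batf3 stood out. This AP-1 family gene was at 1.35 and 1.42 FPKM in WT and 64.4 and 79.1 in tKO, 51.9-fold higher (4.92 ± 0.36, adjusted p = 2.40e-06). It is also a marker of dendritic cells, and H2-Ab1 of the same list was at 81.7 and 40.4 FPKM in WT and 451 and 418 in tKO (2.89 ± 0.60, adjusted p = 0.00663), a call lost without WT replicate 2 (adjusted p = 0.083). Itgax and Siglech, which define dendritic cells, were listed at 0 in all 4 libraries, and Flt3 in both tKO libraries. The other MHC class II genes H2-Aa, H2-Eb1 and Cd74 were not called, with adjusted p of 0.876, 0.916 and 0.443. The whole list summed to 777 and 467 FPKM in WT and 1407 and 1209 in tKO, and its part in the Batf3 result was not tested.

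Of 13 AP-1 and BATF genes, 4 rose and none fell, and 2 were called higher without WT replicate 1 or without tKO replicate 2. With Batf3 set aside, which averaged under 1 FPKM over the WT libraries, 3 of 12 rose. Atf3, a stress-induced factor, was at 7.56 and 2.94 FPKM in WT and 277 and 248 in tKO (5.50 ± 0.50, adjusted p = 1.43e-05). Ier3, an immediate early gene, rose 15.5-fold (3.74 ± 0.30, adjusted p = 4.38e-06).

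Genes that p53 activates rose in part. Of 18 tested, 7 were called higher and 1 lower, and the number higher was 5, 2, 5 and 4 without WT replicate 1, WT replicate 2, tKO replicate 1 and tKO replicate 2. Cdkn1a, which encodes the cell cycle inhibitor p21, was at 71.6 and 74.8 FPKM in WT and 400.3 and 505 in tKO (2.60 ± 0.23, adjusted p = 1.06e-05), and Mdm2, the ligase that degrades p53, at 31.3 and 30.1 in WT and 84.4 and 72.3 in tKO (1.32 ± 0.20, adjusted p = 0.000759). Sesn1, another p53 target, fell from 30.8 and 22.8 to 9.28 and 6.03 FPKM (-1.69 ± 0.23, adjusted p = 0.00033).

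Of 32 cell cycle genes tested, 4 were called lower (12.5%, against 4.3% of all genes) and 1 higher. Only 6 had a positive difference and the median was -0.37. The number called lower was 1, 2, 3 and 2 without WT replicate 1, WT replicate 2, tKO replicate 1 and tKO replicate 2, and 10 without the 3 libraries of tKO replicate 1. The mitotic cyclin gene Ccnb2 was at 165 and 162 FPKM in WT and 85.2 and 94.2 in tKO (-0.86 ± 0.15, adjusted p = 0.0021). Plk1 was at 127 and 128 FPKM in WT and 82.4 and 74.9 in tKO (-0.69 ± 0.15, adjusted p = 0.00868), a call kept only without tKO replicate 1 when a library was left out (adjusted p of 0.071 to 0.074 without each of the others). Ccnd2, cyclin D2 of early G1, rose 2.37-fold (1.24 ± 0.19, adjusted p = 0.000957). None of 24 genes of ribosome biogenesis was called by limma, and 4 had an unadjusted p under 0.05, which is 2266 of 10354 over all genes.

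Metallothioneins, which bind zinc and copper, rose to high levels. Mt1 was at 17.2 and 19.3 FPKM in WT and 1199 and 1754 in tKO, 80.9-fold higher (6.24 ± 0.27, adjusted p = 4.62e-08), and Mt2 at 3.11 and 1.81 in WT and 107 and 170.3 in tKO (5.32 ± 0.48, adjusted p = 1.26e-05). None of the other 9 zinc handling genes tested was called.

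Of 21 genes of cholesterol synthesis, 6 were called lower and none higher, with a median of -0.56, but the number was 1, 1, 2 and 1 without WT replicate 1, WT replicate 2, tKO replicate 1 and tKO replicate 2. Sc4mol, a sterol methyl oxidase that itself needs oxygen, was at 99.6 and 118 FPKM in WT and 49.3 and 70.7 in tKO (-0.86 ± 0.19, adjusted p = 0.00965), a call lost without WT replicate 2 (adjusted p = 0.12) or tKO replicate 1 (0.087). Cyp51, also an oxygen-dependent step, was at 79.7 and 79.6 FPKM in WT and 52.4 and 43.2 in tKO (-0.73 ± 0.17, adjusted p = 0.0154), lost without WT replicate 1 (0.1), WT replicate 2 (0.1) or tKO replicate 2 (0.14). Elovl5, which lengthens polyunsaturated fatty acids, was at 115 and 101 FPKM in WT and 47.5 and 32.5 in tKO (-1.44 ± 0.22, adjusted p = 0.000735).

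Steroid enzymes changed in opposite directions. Akr1c18, whose product inactivates progesterone, was at 24.4 and 33.8 FPKM in WT and 623 and 454 in tKO, 18.5-fold higher (4.16 ± 0.24, adjusted p = 4.01e-07). Hsd11b1, which regenerates active glucocorticoid, fell from 15.0 and 19.2 to 0.686 and 1.15 FPKM (-3.24 ± 0.34, adjusted p = 3.95e-05). Adh1, which oxidises alcohols including retinol, was at 6.65 and 11.9 FPKM in WT and 0 and 0.623 in tKO (-2.96 ± 0.44, adjusted p = 0.000698).

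Interferon-stimulated genes split too: 3 of 21 rose (14.3%, against 5.34% of all genes) and 2 fell (9.52%, against 4.3%). Without WT replicate 2 the counts were 2 higher and 4 lower. Isg15, a ubiquitin-like modifier, was at 10.3 and 7.59 FPKM in WT and 40.1 and 41.6 in tKO (2.09 ± 0.36, adjusted p = 0.00187), and Bst2, tetherin, rose 2.53-fold (1.33 ± 0.23, adjusted p = 0.00222). Gbp3, a guanylate-binding protein gene, fell 5.22-fold (-2.25 ± 0.38, adjusted p = 0.00183) and Ifitm1 went from 5.27 and 5.40 FPKM to 0.347 and 0 (-2.45 ± 0.42, adjusted p = 0.00203).

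Of 18 genes of PI3 kinase and mTORC1 control, 1 rose (5.56%, against 5.34% of all genes) and 4 fell (22.2%, against 4.3%), the latter 2 without tKO replicate 2. Of 10 cytotoxic genes 3 rose (30%) and 2 fell (20%), the latter at most 1 whichever of the 4 libraries was left out. Pik3ip1, a brake on PI3 kinase in resting T cells, was at 10.4 and 7.94 FPKM in WT and 1.84 and 2.02 in tKO (-1.79 ± 0.26, adjusted p = 0.000518). Serpinb9, which protects cells from granzyme B, rose 3.94-fold (1.92 ± 0.24, adjusted p = 0.000189) and the granule proteoglycan gene Srgn 2.65-fold (1.40 ± 0.24, adjusted p = 0.00213). Gata1, a factor of red cell and mast cell lineages, was at 16.7 and 11.3 FPKM in WT and 1.80 and 0.0226 in tKO (-3.13 ± 0.40, adjusted p = 0.000219).

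Some genes with the smallest p stood in none of the lists. Pde1a, a cyclic nucleotide phosphodiesterase gene, was at 0.491 and 0.384 FPKM in WT and 71.6 and 93.3 in tKO, 189-fold higher (5.85 ± 0.35, adjusted p = 4.04e-07). Anxa4, annexin A4, was at 8.01 and 9.40 FPKM in WT and 61.6 and 60.2 in tKO (2.68 ± 0.19, adjusted p = 1.83e-06). AI836003, which has only a database identifier for a name, was at 1.89 and 0.987 FPKM in WT and 52.1 and 43.3 in tKO (4.34 ± 0.30, adjusted p = 1.50e-06). In all 3 the lowest tKO library exceeded the highest WT library several times over. Pde1a and AI836003 averaged under 1 FPKM over the WT libraries of all doses and so passed the filter only through tKO libraries.

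On the lower side, Ccdc164 was at 37.8 and 30.6 FPKM in WT and listed at 0 in both tKO libraries (-5.13 ± 0.32, adjusted p = 6.77e-07), as was Atp8a2, a lipid flippase gene, at 6.39 and 8.28 FPKM in WT (-3.05 ± 0.35, adjusted p = 8.68e-05). Tesc, a calcium-binding protein gene, was at 49.9 and 63.8 FPKM in WT and 9.36 and 7.98 in tKO (-2.57 ± 0.21, adjusted p = 5.00e-06). The muscle enolase gene Eno3 fell from 166 and 199.8 to 29.1 and 40.7 FPKM (-2.37 ± 0.24, adjusted p = 3.95e-05), opposite to the glycolytic genes above. Pecam1, the adhesion molecule CD31 of naive T cells, fell 5.22-fold, Igfbp7 3.48-fold, the glycerol channel gene Aqp3 7.49-fold, Mgst2, a glutathione transferase gene, 8.61-fold, Mpp1 3.50-fold and Arl5c 7.52-fold.

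The same genotypes were also cultured with 2 ng/ml TGF-b, which allows a test of whether the genotype difference depends on the dose. The difference at 0 minus that at 2 ng/ml was called for 308 of 10354 genes (2.97%, with 1.43% positive and 1.55% negative), and that at 0 minus at 0.2 ng/ml for 45 (0.435%). The first count fell to between 78 and 157 without each of WT replicates 1 and 2 at either dose, tKO replicate 2 at 0 ng/ml and tKO replicates 1 and 2 at 2 ng/ml, and was 393 without tKO replicate 1 at 0 ng/ml. With the replicate number as a block it was 512. Of the 998 genes called at 0 ng/ml, 476 were called in the same direction at 2 ng/ml, where 1655 genes (16.0%) were called in all, and 16 were called in the opposite direction. The difference between doses was itself called for 150 of the 998.

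The type 2 cytokines were among them. With TGF-b at 2 ng/ml, the FPKM of Il4 were 0 and 0.915 in WT and 0.254 and 0 in tKO, Il5 was listed at 0 in both WT libraries and at 2.87 and 0 in tKO, and Il24 was at 0.0385 and 0 FPKM in WT and 1.93 and 1.18 in tKO. Without TGF-b the tKO libraries held far more of each. The difference between doses was 5.66 ± 0.54, adjusted p = 0.000489 for Il4, 4.84 ± 0.82, adjusted p = 0.00801 for Il5, 3.56 ± 0.58, adjusted p = 0.00655 for Il13 and 5.46 ± 0.57, adjusted p = 0.000596 for Il24. Outside the tKO libraries at 0 ng/ml, Il4 and Il13 averaged under 1 FPKM. Both were thus tested only because of the group whose excess this test then called. Il5 and Il24 passed the filter only through tKO libraries. Batf3 followed them, at 1.14 and 1.26 FPKM in tKO with 2 ng/ml against 64.4 and 79.1 without (3.79 ± 0.51, adjusted p = 0.00201). Il9 remained at 88.6 and 158 FPKM in tKO with TGF-b, and its difference between doses did not pass the test (3.14 ± 0.79, adjusted p = 0.0518).

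Foxp3 differed between doses in the opposite direction. With 2 ng/ml TGF-b it was at 120.3 and 168 FPKM in WT and 86.7 and 142 in tKO, overlapping ranges, and the difference between doses was -3.42 ± 0.40, adjusted p = 0.00123. Lrrc32, at 14.1 and 26.1 FPKM in WT and 17.0 and 13.0 in tKO with TGF-b, also overlapped (-2.75 ± 0.45, adjusted p = 0.00655), a call lost without tKO replicate 1 at 2 ng/ml (adjusted p = 0.0534). Klf2 rose in tKO to 58.5 and 74.5 FPKM with TGF-b but stayed under the 238 and 254 FPKM of WT (-2.49 ± 0.33, adjusted p = 0.00201).

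**Figure D4:**
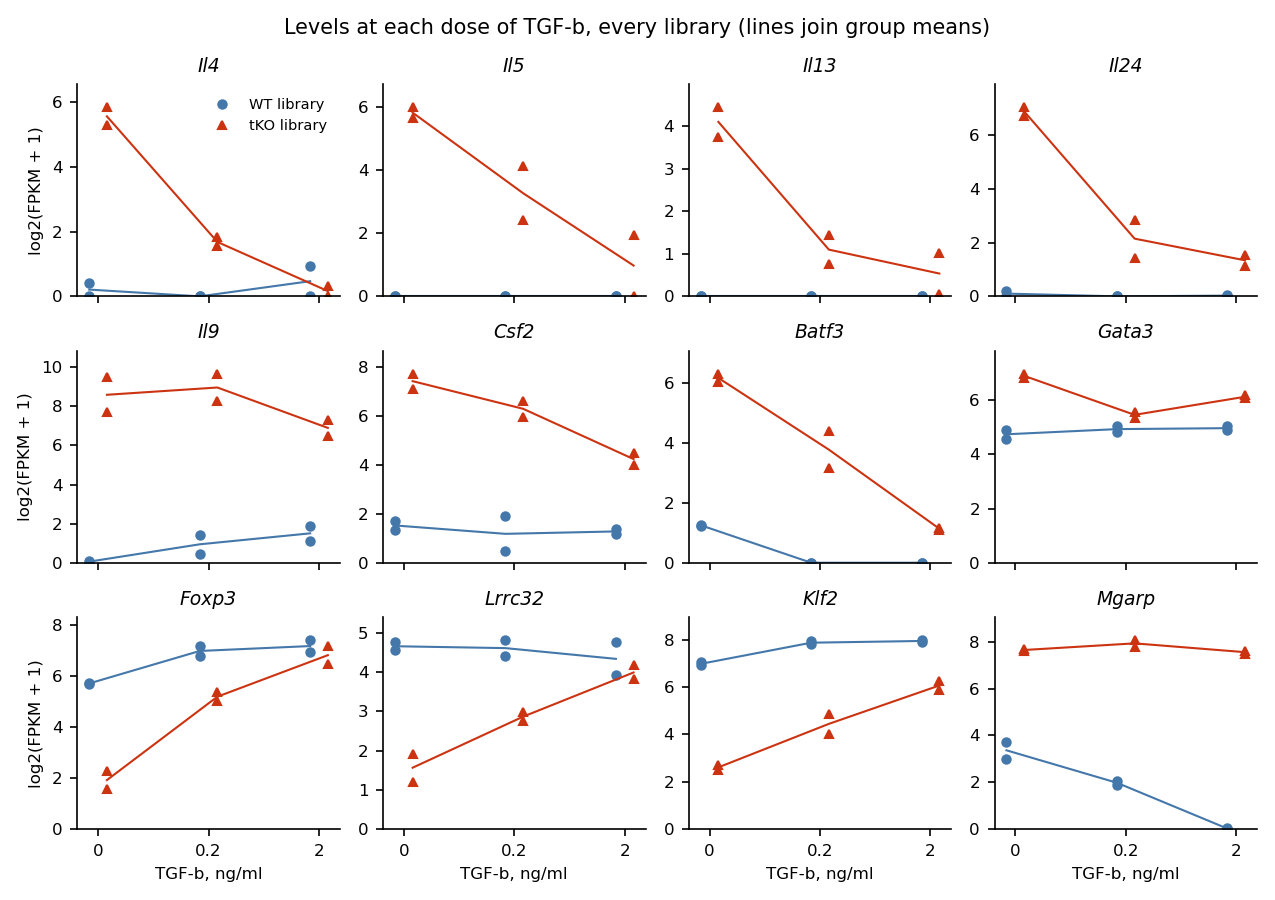
Levels of 12 genes as log2(FPKM + 1) at 0, 0.2 and 2 ng/ml TGF-b, each symbol a library (WT circles, tKO triangles) and lines joining group means. In tKO, Il4, Il5, Il13, Il24 and Batf3 lie highest at 0 ng/ml and Foxp3, Lrrc32 and Klf2 lowest, while Mgarp is level in tKO and lower in WT at higher doses.

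Several HIF targets had the smaller genotype difference without TGF-b. Mgarp stood at 197 and 179 FPKM in tKO with 2 ng/ml, close to its level without, while WT went from 12.4 and 6.96 to 0 and 0.0287 FPKM, and the difference between doses was -3.25 ± 0.33, adjusted p = 0.000561. Bnip3 went from 101 and 94.8 to 24.0 and 31.9 FPKM in WT (-1.59 ± 0.23, adjusted p = 0.00382), and Tpi1 from 629 and 626 to 192 and 172 (-1.34 ± 0.23, adjusted p = 0.00801). The Tpi1 call was lost without WT replicate 1 at 0 ng/ml (adjusted p = 0.0506) or, at 2 ng/ml, without WT replicate 2 (0.0526), tKO replicate 1 (0.0505) or tKO replicate 2 (0.0597). Plin2 went the other way: with 2 ng/ml it was at 53.3 and 63.7 FPKM in WT and 52.7 and 59.1 in tKO (2.03 ± 0.34, adjusted p = 0.00782), a call lost without tKO replicate 1 at 2 ng/ml (adjusted p = 0.0584). P4ha2, Egln3, Hilpda, Vegfa, Adm and Jmjd6 had differences between doses that did not pass the test, with adjusted p from 0.287 to 0.947.

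**Figure D5:**
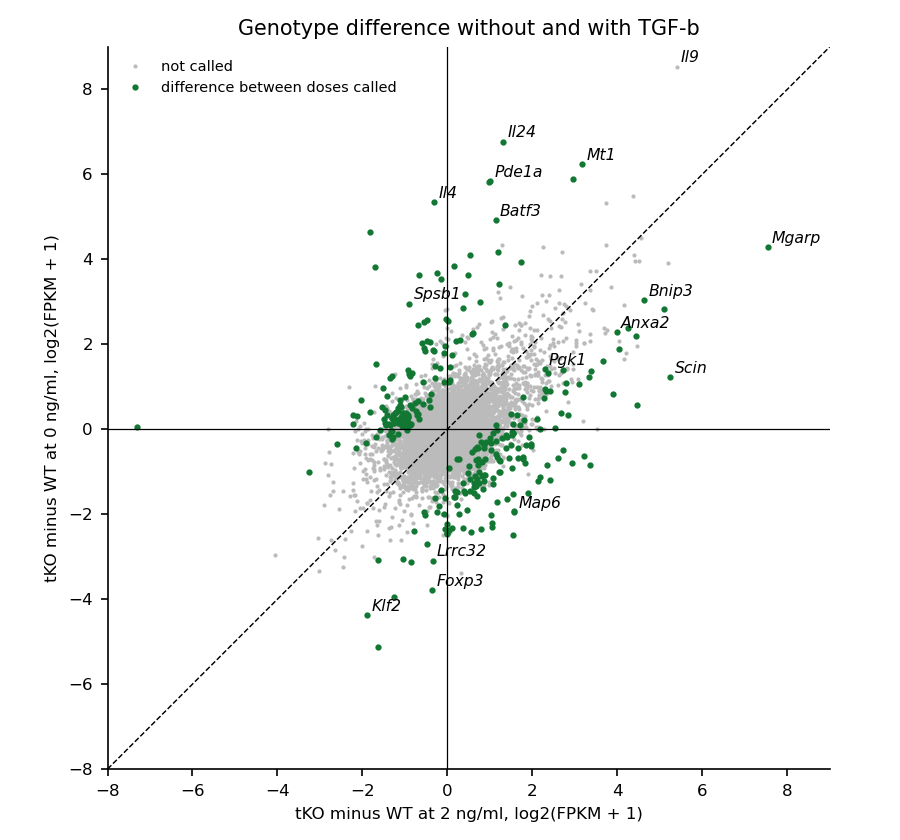
Each point is a gene, with tKO minus WT at 2 ng/ml on the x axis and at 0 ng/ml on the y axis, both log2(FPKM + 1); green marks the 308 genes whose difference between doses was called and the dashed line marks equal differences. Il4, Il24 and Pde1a lie between -0.31 and 1.31 on the x axis and above 5 on the y axis, and Mgarp, Bnip3 and Scin lie right of the line.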

How the data were processed

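RNA was prepared with RNeasy and amplified with a SMARTer low-input kit, which keeps no strand, per the labels' protocols. Per the submitters' processing notes, the tools were TopHat, Cufflinks, Cuffdiff and Trimmomatic with build mm9 (versions: not given in the sources used here). FPKM values per gene entry are those the authors deposited, per the file headers. Of 34309 entries, 8483 without a symbol were left out (5.37% to 8.18% of FPKM at 0 ng/ml), and for 2518 symbols with several distinct entries these were summed.

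Testing covered genes whose FPKM averaged 1 or more across the experiment's 12 libraries. The test was that of limma (version 3.58.1, run in R 4.3.3; log2(FPKM + 1), mean-variance trend, 1 coefficient per group, Benjamini-Hochberg adjustment, two-sided), so that all 6 groups share 1 estimate of the spread. The procedure was tested on simulated data. Alternatives changed the pseudocount, filter, scaling, model and libraries. Members and lists were chosen with earlier results of these data known. Genes named were those with the smallest p among all genes, in each list and in the dose comparison, and those listed at 0 in 1 genotype; 1 gene of this rule is not reported here. The chromosome 11 set, and genes outside this rule, were chosen after their values were seen.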

Additional observations from a re-analysis of the deposited data

Results flagged for a closer look

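For 49 of the 127 genes given values, the genotype difference at 0 ng/ml TGF-b differed from that at 2 ng/ml in the limma test of the difference between doses. The values are the first minus the second on the log2(FPKM + 1) scale, and the groups at each dose hold 2 libraries. No library enters at both doses, but the Y-linked sums set the tKO replicate 1 libraries of all doses apart. The limma fit held no term for a link between doses, and the count with a random series factor is given below. In 20 genes the value was positive and in 29 it was negative, and 27 of the 49 kept the call when each of the 8 libraries was left out in turn and 28 under every processing and model alternative.

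Among those 27, the positive values were Il4 (5.66), Il24 (5.46), Pde1a (4.84), Il5 (4.84), Spsb1 (3.85), Batf3 (3.79), Il13 (3.56), Mt1 (3.07), Akr1c18 (2.96), Casp6 (2.63), Srgn (2.34), Npc2 (1.80) and Ccr8 (1.66). Of these, Il4 and Il13 passed the filter only through the tKO libraries at 0 ng/ml. Il5, Il24, Pde1a and Batf3 passed it only through tKO libraries. The negative values were Scin (-4.02), Map6 (-3.52), Ccdc164 (-3.50), Foxp3 (-3.42), Pla2g4f (-3.39), Mgarp (-3.25), Bcl3 (-3.04), Klf2 (-2.49), Eno3 (-2.40), S100a6 (-2.38), Igfbp7 (-2.01), Anxa2 (-1.70), Id3 (-1.62) and Bnip3 (-1.59). Scin, the actin-severing protein scinderin, stood at 0.874 and 0.710 FPKM in WT and 70.8 and 63.4 in tKO at 2 ng/ml, against 9.28 and 6.90 in WT and 27.2 and 14.8 in tKO without TGF-b. At 0 ng/ml alone, the call of Scin was lost without WT replicate 1, WT replicate 2 or tKO replicate 1 (adjusted p of 0.088 to 0.24), that of Npc2 without WT replicate 2, tKO replicate 1 or tKO replicate 2 (0.062 to 0.15) and that of Pla2g4f without tKO replicate 1 (0.054).

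The other 22 lost the call without at least 1 library. Their positive values were Il12a (3.94), Csf2 (2.94), Isg15 (2.56), Plin2 (2.03), Tigit (1.89), Id2 (1.87) and Lgals3 (1.10), and their negative values were Lrrc32 (-2.75), Ifitm1 (-2.43), Gata1 (-2.27), Itgb7 (-2.23), Aldoc (-2.23), Atp8a2 (-2.01), Gpr83 (-1.92), Ltb (-1.77), Igfbp4 (-1.46), Cyp51 (-1.40), Tpi1 (-1.34), Elovl5 (-1.29), Egln1 (-1.04), Plk1 (-0.92) and Pgk1 (-0.88). The calls of Pgk1 and Ifitm1 were lost in each of the 8 fits.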

How the results depend on the processing

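Of the 121 genes given here that were called at 0 ng/ml, 109 kept the call under every processing and model alternative, 104 when each library at 0 ng/ml was left out in turn, and 112 without the 3 tKO replicate 1 libraries, an alternative chosen after seeing the data. Leaving out a library gave 513 to 792 calls at 0 ng/ml, 300 to 395 higher and 196 to 397 lower. The count of genes whose difference changed between 0 and 2 ng/ml was 157 with no filter on low values, 512 with the replicate block, 528 with a random series factor, 630 without the tKO replicate 1 libraries and 78 to 393 with a library left out. Between 0 and 0.2 ng/ml it was 17 with a pseudocount of 0.1, 16 with no filter, 80 with the replicate block, 83 with a random series factor, 10 without the tKO replicate 1 libraries and 1 to 110 with a library left out. The replicate block gave 1154 calls at 0 ng/ml and kept 996 of the 998. A fit of the 4 libraries at 0 ng/ml alone gave 807 calls and kept 755 of the 998. Replicate numbers did not meet the bar for pairing WT with tKO, with 2 numbers per group: deviations of same-numbered WT and tKO libraries at 0 ng/ml correlated with r = 0.255, and those of other pairs of groups with r between -0.106 and 0.416. Within tKO, pairs of doses correlated with r of 0.416, 0.127 and 0.110, and the Y-linked sums set the replicate 1 libraries of all doses apart. The uncalled value of Irf1 changed sign (-0.0497 with quantile normalization, -0.471 to 0.624 with a library left out, -0.0339 without the 3 tKO replicate 1 libraries). The cause of these shifts was not tested. Absolute depth is unknown, which limits what can be said of genes listed at 0.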
